A study of Mus musculus with 18 samples.

Results

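Wild-type mice aged 3, 5 and 8 months supplied 9 of the 18 arrays in a study of palmitoyl protein thioesterase-1 (Ppt1), the enzyme that strips palmitate from proteins in the lysosome and whose loss causes infantile neuronal ceroid lipofuscinosis. The 9 arrays were taken by their labels alone, with no measured value used, and each age had 3 of them, 1 from a male and 2 from females. The other 9 arrays came from Ppt1 knockout mice of the same ages, 1 male and 2 females at 3 and at 5 months and 2 males and 1 female at 8 months. No treatment, strain or knockout allele is given for either genotype in the sources used here, and nothing says that the 3 arrays of an age came from 3 different animals; p-values then reflect only the variation among these arrays, which may be technical. Total RNA was hybridised to 1 Affymetrix mouse array per sample, and the signal of a probe set, a group of probes for one transcript, is given on the linear scale of the deposited values, with differences on log2(signal + 16).

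The source is labelled as brain and cochlea. The neuronal marker Snap25 had a median signal of 8826 over the 9 arrays, the astrocyte marker Aqp4 1437 and the myelin marker Mbp 11040. The excitatory neuron marker Neurod6 had 294.4, the striatal marker Ppp1r1b 691.7, the choroid plexus marker Ttr 12070 and the cerebellar Purkinje cell marker Pcp2 1500. Forebrain and cerebellar tissue with choroid plexus was thus represented. Of 8 genes of the cochlear sensory epithelium, Coch, Myo7a and Otof exceeded bacterial control probe sets on all 9 arrays, while the hair cell genes Slc26a5 and Pou4f3 did so on 1 and 2 arrays. The pituitary hormone subunit Cga did so on 0 of 9. The ratio of 5′ to 3′ actin signal, a measure of RNA integrity, was 0.4799 to 0.5467 at 3 months, 0.4122 to 0.4987 at 5 months and 0.5014 to 0.5246 at 8 months. Ppt1 itself bore out the genotype labels: its brightest probe set was 542.6 to 629.4 on the wild-type arrays and 0.8795 to 23.41 on the knockout arrays, without overlap, and in wild type it changed by -0.0704 with age (adjusted p = 0.84). Another of the 5 Ppt1 probe sets did not overlap between genotypes either (307.4 to 413.9 against 1.87 to 38.92), while the dimmer ones did. Array medians were 43.15 to 44.6, and 9 of 9 arrays matched their labelled sex. The labels number the wild-type samples consecutively by age, so handling order and age cannot be told apart. In RNA of whole tissue, fewer cells of a type and less RNA per cell cannot be told apart either.

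As background, a mouse of these ages is a young to mature adult in which brain growth, myelination and synapse formation are largely over. Glucocorticoids, the adrenal stress hormones, follow a daily rhythm and act through the glucocorticoid receptor, which enters the nucleus and binds paired half-sites in DNA, raising a set of genes in neurons, glia and vessels. Microglia, the resident macrophages of the brain, and newly forming oligodendrocytes are 2 populations that are known to change slowly through adult life. Age was tested as a linear trend over the 3 age means, with sex as a covariate, and is expressed as the fitted change from 3 to 8 months.

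Few probe sets passed for a drift with age without the disease, and most of those that passed fell. Of 27022 probe sets tested, 52 (0.192%) passed an adjusted p of 0.05 in limma, 16 higher (0.0592%) and 36 lower (0.133%) at 8 months. They stood for 9 named genes that rose and 27 that fell, beside 8 probe sets shared by several genes and 2 with no gene symbol. The absolute change of the 52 was 0.40 to 1.86 with a median of 0.69, and 7 of them, 1 higher and 6 lower, changed at least 2-fold. The median change over all tested probe sets was 0.0054. Of the 52, 46 made the larger of their 2 steps between 5 and 8 months. That step spans 3 months and the earlier one 2, and per month 41 of the 52 had the larger step late. The 3 arrays at 8 months lay outside the range of those at 3 months for 52 of the 52 and outside the range at 5 months for 49. The 5-month arrays lay apart from the 3-month arrays for 14. These step and range counts describe the 52, which the trend on the same arrays chose, and are no independent support. The same shares over all tested probe sets were not computed. At an unadjusted p under 0.05 in limma, 2362 probe sets (8.74%) passed, 4.31% higher and 4.43% lower. The excess of falls was thus seen at the adjusted threshold only.

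The call of any single gene rests on how the spread is modelled. When the variance was not allowed to depend on signal strength, 0 probe sets passed, the smallest adjusted p was 0.205, and 2254 passed unadjusted. The count was 16, 25 and 21 without arrays 1, 2 and 3 at 8 months, 26 and 24 without the first and second at 3 months, and 85 without the third at 5 months.

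Tested step by step, 5 against 3 months gave 0 called probe sets (0%), with a smallest adjusted p of 0.66 in limma and 1411 (5.22%; 2.68% higher and 2.54% lower) at an unadjusted p under 0.05; without the first 5-month array 1 passed. The step from 5 to 8 months gave 23 (0.0851%), 2 higher (0.0074%) and 21 lower (0.0777%), of which 15 were also called for the trend. This count was 8, 43 and 10 without arrays 1, 2 and 3 at 5 months and 7, 6 and 8 without those at 8 months. It was 0 with a variance that did not depend on signal, where 2403 passed unadjusted, beside 2701 (4.81% higher and 5.18% lower) with the variance trend. Whether the late step was larger than the early one was not tested gene by gene.

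The group that stood out among the genes that fell was that of known glucocorticoid targets. Of 25 measured genes of a list of such targets, at 1 probe set per gene, 9 fell and 0 rose, against 22 lower (0.177%) and 9 higher (0.0723%) of all 12452 genes, or 0.249% in either direction. The list's median change was -0.62, beside 0.0116 over all genes. Of its 25 members 24 had a negative change, beside 5811 of 12452 over all genes. This list and the others below were chosen with earlier results of these data known, so their counts and medians are no independent test. The median of the list was -0.09 for 5 against 3 months and -0.46 for 8 against 5 months. The summed signal of the list was 24870 to 27350 on the 3-month arrays, 22070 to 25470 on the 5-month arrays and 18340 to 18990 on the 8-month arrays, so the oldest arrays were below both younger groups. The count of 9 was 0 without a variance trend and 1 when all 18 arrays shared one fit.

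Sgk1, a kinase that controls ion channels and transporters and is a classical early target of the receptor, gave the second smallest adjusted p of all. Its signal was 2111, 2167 and 2082 at 3 months, 1399, 1253 and 1662 at 5 months and 729, 949 and 1068 at 8 months. The 3 ages did not overlap; the step from 5 to 8 months passed (-0.65, adjusted p = 0.0201 in limma) and that from 3 to 5 months did not (-0.56, adjusted p = 0.66). The fitted change was -1.20 ± 0.103 (SE, adjusted p = 4.43e-05 in limma), a 2.3-fold fall from 2120 ± 43 to 915 ± 172 (SD, n = 3 each).

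One of the annotated start sites of Sgk1 carries the complete palindrome to which the receptor binds, which is why its promoter is shown here. The sequence is the RefSeq promoter of assembly GRCm38.p6 (plus strand, 5′ to 3′, 250 bases before to 50 after the start), and the capitals mark the match to AGAACA, any 3 bases and TGTTCT, searched on both strands, 189 bases before the start.
Sgk1, chr10:21993640-21993939: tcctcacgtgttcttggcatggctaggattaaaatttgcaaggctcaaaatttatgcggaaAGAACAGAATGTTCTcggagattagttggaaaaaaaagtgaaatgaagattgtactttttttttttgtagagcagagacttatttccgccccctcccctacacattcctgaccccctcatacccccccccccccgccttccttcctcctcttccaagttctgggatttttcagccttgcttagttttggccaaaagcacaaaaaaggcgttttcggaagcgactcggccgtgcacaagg
This palindrome was found in the promoters of 3 of 27025 genes in the table (0.011%) and in 1 of the 10070 tested genes that have an entry there, which is Sgk1. The looser ACA, any 3 bases and TGTTC, which lies inside the palindrome, was found for 3 of the 22 falling genes with an entry (13.6%), 3 of 20 of the list's genes (15%), 0 of 4 rising genes and 0.824% of tested genes. The falling genes were Sgk1, Fam107a and Bdnf, and the list's were Sgk1, Mt1 and Map3k6. The 41-base windows below are all written along the strand of the gene with the match in capitals. The outer capitals are fixed by the search, and the central bases vary, except that Bdnf and Map3k6 carry the same ones.
Sgk1, chr10:21993689-21993729, plus strand: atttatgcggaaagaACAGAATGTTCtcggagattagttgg
Fam107a, chr14:8309870-8309910, minus strand: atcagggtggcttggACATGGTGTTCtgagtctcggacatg
Bdnf, chr2:109694384-109694424, plus strand: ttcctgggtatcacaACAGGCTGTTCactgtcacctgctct
Mt1, chr8:94178982-94179022, plus strand: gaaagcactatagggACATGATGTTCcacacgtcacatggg
Map3k6, chr4:133240624-133240664, plus strand: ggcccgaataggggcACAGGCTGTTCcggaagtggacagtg
A match describes the letters in these windows and does not show binding.

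Hif3a, a hypoxia-inducible factor subunit, had signals of 88.1, 102 and 105 at 3 months, 74.8, 71.1 and 76.1 at 5 months and 23.9, 20.8 and 41.9 at 8 months. The ages did not overlap, and the fall of 2.64-fold (-1.40 ± 0.189, adjusted p = 0.00368) was the largest in this list. Plin4, a lipid droplet coat protein, had 55, 92.7 and 107 at 3 months, 103, 76.6 and 150 at 5 months and 11.6, 32.5 and 43.8 at 8 months, where 1 of the 3 arrays was at background. The ranges at 3 and 5 months overlapped; Plin4 fell by 1.51 ± 0.234 from 5 to 8 months (adjusted p = 0.0173), and its trend was -1.29 ± 0.232.

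Tsc22d3, Zbtb16 and Fkbp5 had ranges that overlapped at 3 and 5 months and were lower at 8 months. Tsc22d3, also called GILZ, which mediates anti-inflammatory actions of the hormone, had 679, 772 and 808 at 3 months, 752, 547 and 895 at 5 months and 343, 400 and 361 at 8 months. Another of its probe sets fell too, by 0.90 ± 0.0944, and the last of 3, with -0.26, did not pass. Zbtb16, a zinc finger repressor, had 208, 308 and 352, then 282, 261 and 422, then 136, 163 and 110. Fkbp5, a chaperone that lowers the receptor's affinity for the hormone, had 203, 271 and 318, then 238, 227 and 304, then 131, 135 and 148. For all of them the 8-month arrays were below every younger array, and the late steps were -0.94 ± 0.13, -1.13 ± 0.172 and -0.81 ± 0.129, each with an adjusted p below 0.05 in limma (0.00951, 0.0167 and 0.0201).

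Mt2, a metallothionein that binds zinc and copper and responds to both metals and glucocorticoids, had signals of 2366, 2429 and 2723 at 3 months, 2210, 2260 and 2594 at 5 months and 1473, 1608 and 1543 at 8 months. It fell by 0.72 ± 0.066 (adjusted p = 7.95e-05 in limma), a 1.65-fold change. Mt1, its neighbour and close relative, went from 4854 ± 619 to 3721 ± 169 (SD, n = 3), a change of -0.37 that did not pass (adjusted p = 0.0656). In the Mt2 promoter below, the capitals mark 4 matches to the metal response element core, TGCGCNC or TGCACNC on either strand. Whether they act in this tissue was not tested.
Mt2, chr8:94172368-94172667, plus strand: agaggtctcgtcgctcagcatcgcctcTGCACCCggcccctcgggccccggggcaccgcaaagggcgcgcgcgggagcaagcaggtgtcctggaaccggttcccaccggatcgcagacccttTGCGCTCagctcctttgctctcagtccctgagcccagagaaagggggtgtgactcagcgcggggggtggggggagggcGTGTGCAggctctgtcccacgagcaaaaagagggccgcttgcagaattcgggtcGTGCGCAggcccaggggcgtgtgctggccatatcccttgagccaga
This short core is common, at 41.7% of tested genes and 59.1% of the falling genes with an entry. The other motifs searched were TGACGTCA, the cAMP response element, in 9.09% of falling and 3.52% of tested genes (Errfi1 and Dio2), and the E-box CACGTG in 9.09% and 11.7%. The heat shock element (GAA, TTC and GAA, each 2 bases apart) was in 0 of the 22 falling genes and 0.576% of tested genes. Of the 20 glucocorticoid list genes with an entry, 25% had the E-box, 5% the cAMP response element, 40% the metal core and 0 the heat shock element.

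Slc2a1, the glucose transporter of the blood-brain barrier, had signals of 1575, 1627 and 1896 at 3 months, 1483, 1450 and 1858 at 5 months and 946, 1093 and 1067 at 8 months. All 3 of its tested probe sets fell, by 0.63, 0.67 and 0.73. Mfsd2a, the barrier's transporter of omega-3 lipids, had 264, 246 and 299, then 216, 168 and 231, then 145, 129 and 133, with no overlap between ages and a change of -0.91 ± 0.123 (adjusted p = 0.00368). These were the 2 of 30 measured endothelial and pericyte genes that passed, beside 0.177% of all genes called lower; Slc2a1 is counted in the glucocorticoid list too, and the list's median was -0.0608, with 13 members positive and 17 negative. The defining endothelial markers had changes of 0.31 for Cldn5, 0.12 for Pecam1 and -0.53 for Cdh5, with adjusted p-values of 0.409, 0.9 and 0.575 in limma.

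Nfkbia, the inhibitor of NF-kappaB, had signals of 338, 331 and 327 at 3 months, 243, 265 and 288 at 5 months and 159, 233 and 208 at 8 months, and its second called probe set fell by 0.62. Klf9, a hormone-responsive transcription factor, fell by 0.46 ± 0.0684 at 1 of its 6 probe sets, from 3834 ± 455 to 2778 ± 80.6 (SD, n = 3), with the others at -0.55 to -0.32. Fam107a, an actin-bundling protein, fell by 0.40, Errfi1, a feedback inhibitor of the EGF receptor, by 0.59, and Trib2, a pseudokinase, by 0.56. Klf9, Fam107a and, further below, Dio2 and Sulf2 are outside the rule for named genes and are given because they complete the calls. Among members of the list that did not pass, Cdkn1a had -0.79 (adjusted p = 0.0656), Sult1a1 -0.98 (0.099), Arrdc2 -0.86 (0.0839), Per1 -0.26 (0.582), Pdk4 -0.31 (0.653) and Tgm2 0.00936 (0.996).

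**Figure D1:**
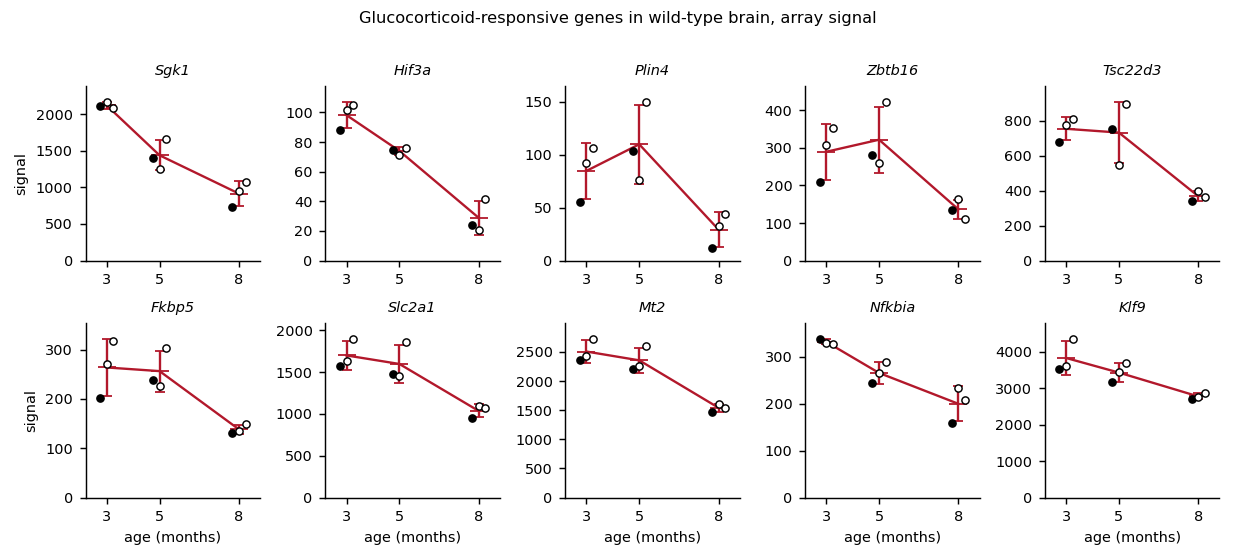
Array signal (y axis, linear from 0) against age in months for 10 glucocorticoid-responsive genes in wild-type brain; points are arrays, filled for the male, and lines join the means with bars of 1 SD over 3 arrays. The 8-month arrays lie below the 3-month arrays in every panel, and for Sgk1, Hif3a and Nfkbia the 5-month arrays lie below the 3-month arrays too.

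The single largest change was in a neuronal gene. Homer1 makes a postsynaptic scaffold that links metabotropic glutamate receptors to intracellular calcium stores, and a short form of it is induced by activity. One of its 6 probe sets had signals of 464, 720 and 630 at 3 months, 754, 605 and 646 at 5 months and 153, 208 and 142 at 8 months. The older arrays were 3.64-fold below those at 3 months (-1.86 ± 0.143, adjusted p = 1.69e-05 in limma), and the 3- and 5-month ranges overlapped. The other 5 probe sets of Homer1 had changes of -0.87 to -0.18 and did not pass, and the brightest went from 1215 ± 70.4 to 1062 ± 24.8 (SD, n = 3). Which transcript form each probe set reads was not analysed here.

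Other activity-regulated neuronal genes fell less. Egr3, an immediate early transcription factor, had 747, 811 and 747 at 3 months, 981, 827 and 922 at 5 months and 597, 521 and 592 at 8 months, so it was highest at 5 months and fell by 0.66 ± 0.0797 after that (adjusted p = 0.00254). Bdnf, the neurotrophin, had 190, 226 and 194, then 179, 187 and 161, then 134, 108 and 123, with no overlap between ages. Vgf, a secreted neuropeptide precursor induced by neurotrophins, had 905, 921 and 968, then 974, 858 and 917, then 679, 641 and 667, a fall of 0.50 ± 0.069. Egr3 and Bdnf were the 2 of 33 measured immediate early genes that passed at the brightest probe set, beside 0.177% of all genes called lower, and the list's median was -0.18 with 24 members negative. Its most used members did not pass: Fos had -0.18, Arc 0.27, Npas4 0.0727 and Nr4a1 0.0665, with adjusted p-values of 0.893, 0.853, 0.949 and 0.954. Nptx2, a secreted pentraxin of synapses, had -0.82 (adjusted p = 0.0641), from 95.5 ± 5.11 to 48.6 ± 3.44 (SD, n = 3). Dio2, the enzyme that activates thyroid hormone in glia, fell by 0.49 ± 0.0892.

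Genes of the oligodendrocyte lineage fell in part. Gpr17, a receptor of newly forming oligodendrocytes that disappears as they mature, had 227, 225 and 246 at 3 months, 142, 145 and 236 at 5 months and 96.3, 108 and 128 at 8 months. The 8-month arrays were below all others, and the fall of 0.98 ± 0.149 was 1.97-fold (adjusted p = 0.00872). Gpr17 was the 1 of 17 measured genes of precursors and new oligodendrocytes that passed, where 0.177% of all genes were called lower. This list as a whole did not fall: 8 members were positive and 9 negative, with a median of -0.0119. Its summed signal was 7607 to 8012 at 3 months and 7874 to 8411 at 8 months. Pdgfra had -0.10, Cspg4 -0.14, Bmp4 -0.15 and Tnr -0.44 (adjusted p of 0.824, 0.871, 0.908 and 0.383 in limma), while Ptprz1 had 0.25 (0.462). Cldn11, the tight junction protein of myelin, had 760, 734 and 694, then 582, 540 and 761, then 454, 467 and 456. Mal, a myelin membrane proteolipid, fell at both of its probe sets, by 0.40 and 0.45, and Tspan2, a tetraspanin of the lineage, by 0.42 ± 0.08. These were the 3 of 27 myelin genes that passed, beside 0.177% of all genes called lower. The rest of the list did not move together: its median was -0.0492 with 12 members positive, and Mbp had 0.00184, Mag -0.0539, Cnp -0.0492 and Mog -0.40 (adjusted p = 0.116), against 0.55 for Sox10 (0.119).

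**Figure D2:**
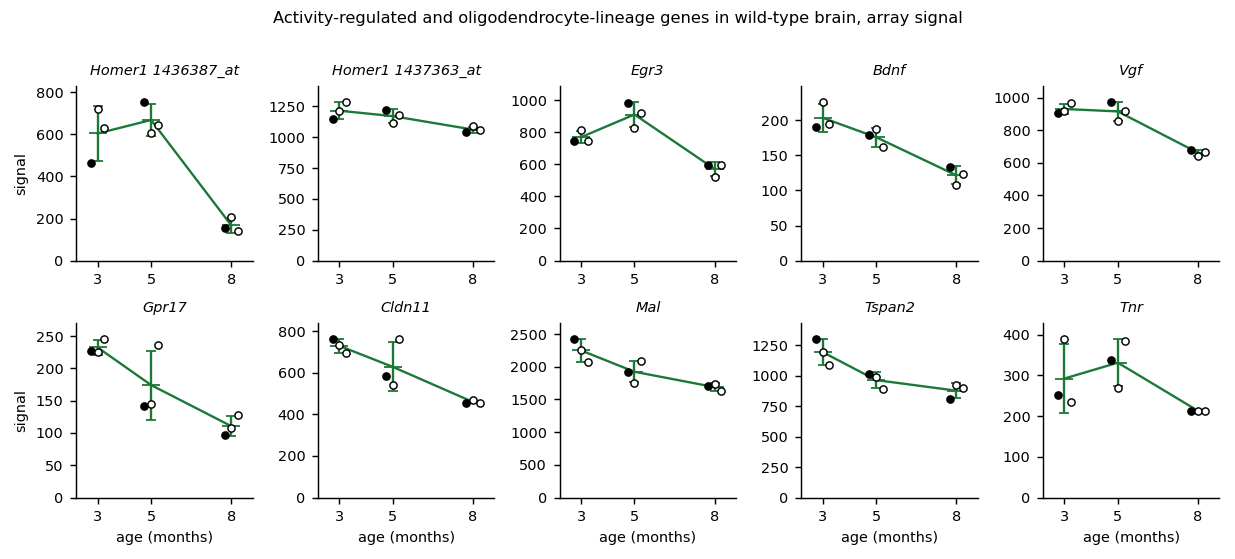
Array signal (y axis, linear from 0) against age in months for activity-regulated genes (top) and genes of the oligodendrocyte lineage (bottom) in wild-type brain; points are arrays, filled for the male, and lines join the means with bars of 1 SD over 3 arrays. Homer1 is drawn at 2 probe sets, and the first of them was 142 to 208 at 8 months after 464 to 754 earlier.

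Several of the falling genes passed at 1 of their probe sets while the others had changes of the same sign that did not pass. These were -0.63 for Fkbp5, -0.70 and -0.16 for Zbtb16, -0.50 for Bdnf, -0.28 for Egr3, -0.33 and -0.28 for Tspan2, -0.34 for Errfi1, -0.19 for Trib2, -0.45 and -0.28 for Fam107a and -0.50 and -0.43 for Dio2.

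The remaining falling genes were in no single list. Gm19439, a predicted gene, fell by 0.91 ± 0.143, and Sfpq, a splicing factor, by 0.64 ± 0.115 at 1 of its 6 probe sets. Dnajb5, a cochaperone, fell by 0.55 at 1 of 3, and Sulf2, which trims heparan sulphate, by 0.45 at 1 of 3. The rest did not pass, with -0.42 to 0.12 for Sfpq, -0.11 and -0.021 for Dnajb5 and -0.22 and 0.0052 for Sulf2. Further genes passed only for the step from 5 to 8 months: Marcks, a membrane-bound actin regulator, fell by 0.60, Dnaja1 and Rheb by 0.45 each, Tra2a by 0.45 and Hsp90b1, the chaperone of the endoplasmic reticulum, by 0.39. Hsp90b1 had been 1524 ± 78.3 at 3 months, was 1665 ± 27.6 at 5 months and was 1274 ± 119 at 8 months (SD, n = 3). Other probe sets did not pass: the brightest of Marcks and Dnaja1 changed by 0.0506 and -0.00932 in that step, the second of Hsp90b1 by 0.086 and the other 3 of Tra2a by -0.24 to -0.02. Of the genes with 1 symbol, Timp2, an inhibitor of matrix metalloproteinases, and Neat1 were those that rose in that step; Timp2 rose by 0.56 ± 0.083 at 1 of 5 probe sets, from 433 ± 29.5 to 650 ± 76.6 after 506 ± 48.8 at 3 months.

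Of the 9 named genes that rose, 3 are microglial. Mpeg1, a pore-forming protein of macrophages, had signals of 83.1, 90.7 and 85 at 3 months, 112, 144 and 123 at 5 months and 177, 203 and 154 at 8 months. The ages did not overlap, and the trend was a 1.87-fold rise (0.90 ± 0.136, adjusted p = 0.00872 in limma). Neither step passed by itself, with 0.47 from 3 to 5 months (adjusted p = 0.923) and 0.44 from 5 to 8 months (0.297). Tyrobp, the signalling adaptor of microglial receptors such as Trem2, had 166, 154 and 169, then 187, 232 and 183, then 288, 275 and 276, again without overlap. Ctss, a lysosomal protease of microglia, had 793, 704 and 733, then 956, 1055 and 791, then 1050, 1151 and 1083, where 1 of the 5-month arrays reached the lowest 8-month array. These were the 3 of 28 measured microglia and macrophage genes that passed, beside 0.0723% of all genes called higher, with 24 of 28 positive and a median of 0.34. Defining markers of the type did not pass: Csf1r had 0.13, Cx3cr1 0.25, P2ry12 0.24 and Tmem119 0.00582 (adjusted p of 0.582, 0.777, 0.662 and 0.997), and Aif1 had 0.84 (0.105). The summed signal of the list was 4237 to 4655, then 4663 to 5661, then 5630 to 6027 on the arrays of the 3 ages.

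In 3 related immune lists most members had positive changes and none passed. Antigen presentation had a median of 0.34 with 11 of 12 members positive, and H2-K1, a class I heavy chain, went from 267 ± 6.67 to 372 ± 27.5 (SD, n = 3; 0.46, adjusted p = 0.0656). The median was 0.25 for complement, 8 genes with C1qa at 0.36, and 0.20 for 26 interferon-response genes. A probe set shared by 2 complement genes, and so outside the list of single genes, did rise: it was 141, 180 and 128 at 3 months, 185, 186 and 168 at 5 months and 263, 333 and 295 at 8 months (0.94 ± 0.125, adjusted p = 0.00368 in limma), with the oldest arrays above all others. At an unadjusted p under 0.05, 4.31% of all tested probe sets were higher and 4.43% lower. The summed microglia signal moved with Mpeg1, Tyrobp and Ctss, and its part in their rise was not tested.

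Of the other genes that rose, Serpinb1a, an inhibitor of neutrophil proteases, had 72.7, 83.1 and 56.3 at 3 months, 71.2, 106 and 85.7 at 5 months and 166, 149 and 139 at 8 months, a 1.97-fold rise (0.97 ± 0.167, adjusted p = 0.0204 in limma), while its second probe set had 0.12 (0.925). Neat1, the long noncoding RNA that builds nuclear paraspeckles, had 583, 573 and 493, then 715, 618 and 627, then 926, 938 and 916, with no overlap and the smallest spread at 8 months. Its second, dim probe set had 0.27 and did not pass. The rise of 0.75 ± 0.0755 had the smallest adjusted p among rising probe sets of 1 gene, 0.000224 in limma. Pisd-ps3, a pseudogene of phosphatidylserine decarboxylase, had 764, 985 and 1233, then 1175, 1076 and 1184, then 1747, 1648 and 1752. Its copies share sequence and several of the shared probe sets rose too, so which copy rose is uncertain. Col6a1, a collagen of vessel and meningeal matrix, rose by 0.59, Pcdhb9, a clustered protocadherin, by 0.57, and 9530057J20Rik, an unnamed transcript, by 0.57.

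**Figure D3:**
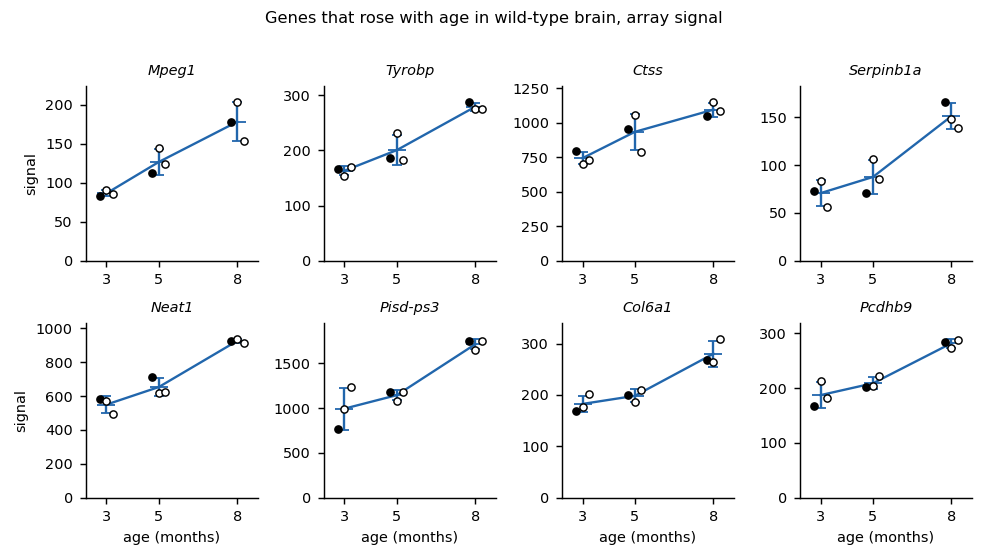
Array signal (y axis, linear from 0) against age in months for 8 genes that rose in wild-type brain; points are arrays, filled for the male, and lines join the means with bars of 1 SD over 3 arrays. The 8-month arrays lie above all younger arrays except for Ctss, where 1050 at 8 months was below 1055 at 5 months.

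Most of the brain's transcriptome that the lists covered gave no call. Of 34 presynaptic, 32 postsynaptic, 29 excitatory neuron, 20 striatal, 22 cerebellar, 28 astrocyte and 47 oxidative phosphorylation genes, 0 passed in either direction in limma. Over all genes 0.249% were called in either direction, so 0 calls in lists of this size lies near that share. The medians of these lists lay between -0.0716 and 0.0153. Gfap, the astrocyte filament protein that marks gliosis, had mean signals of 629 ± 20, 697 ± 34.1 and 717 ± 37 in order of age (SD, n = 3; 0.17 ± 0.0711, adjusted p = 0.49). Snap25 had a change of -0.0101 and Mbp of 0.00184. On simulated data of this design the test recovered 24% of changes of 0.5, 68% of changes of 1 and 94% of changes of 1.5, so changes below 2-fold could often not be detected with 3 arrays an age.

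**Figure D4:**
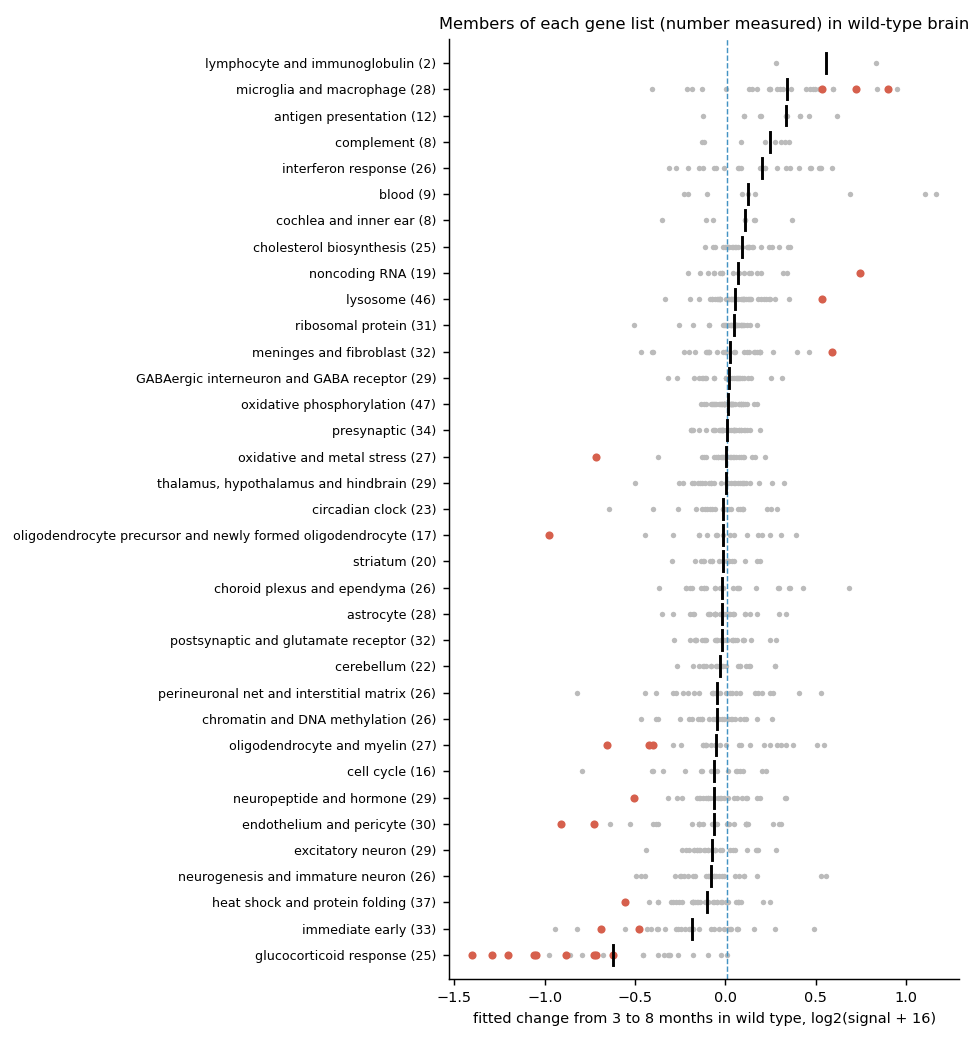
Fitted change from 3 to 8 months in wild-type brain, on the log2(signal + 16) scale (x axis), of each measured member of 35 gene lists (rows, number measured in brackets); red points passed an adjusted p of 0.05, black bars are list medians and the dashed line is the median of all genes. The glucocorticoid list is lowest, with a median of -0.62 and 9 red points, and microglia has 3 red points on the right.

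The trend was also fitted over the same ages in Ppt1 knockout mice, where age and the course of the disease cannot be told apart. In the knockout arrays alone, 302 probe sets passed for the trend (1.12%), 218 of them higher (0.807%) and 84 lower (0.311%). Of the 52 probe sets called in wild type, 22 moved the same way in the knockout (42.3%, exact 95% binomial interval 28.7 to 56.8%, which treats probe sets as independent), beside 50.2% of all tested. By direction, 15 of 16 rising probe sets had the same sign in the knockout and 7 of 36 falling ones did. Of the rising probe sets 5 also passed there, the probe set shared by 2 complement genes with 1.77, Mpeg1 with 1.49, Tyrobp with 1.11, Ctss with 0.95 and Neat1 with 0.85. All 5 had higher mean signals in the knockout than in wild type at 3 months already. In the same order these were 707.6 against 149.3, 374.8 against 86.27, 501.7 against 163.2, 1550 against 743.2 and 713.8 against 549.5. Whether these rises are the same drift as in wild type was not tested. No falling probe set passed as lower, and Mt2 passed as higher, with 1.24 ± 0.244 (adjusted p = 0.0328). Without the second knockout array at 8 months the share of matching signs was 26.9%.

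The difference between the trends, knockout minus wild type, was tested on all 18 arrays and passed for 311 probe sets (1.15%), 198 with the knockout above (0.733%) and 113 below (0.418%). Among the 52 it passed for 26 of 36 falling ones, with the knockout above wild type in 26, and for 2 of 16 rising ones. The wild-type trend that chose these probe sets is part of that difference, so the count describes them and is not independent of the choice. Sgk1 was 994, 800 and 1006 in the knockout at 3 months, 1696, 1910 and 1271 at 5 months and 3779, 1530 and 1807 at 8 months, with means in the opposite order to wild type and a difference of 2.36 ± 0.308 (adjusted p = 0.00197 in limma). Mt2 was 2125, 1850 and 2145, then 3343, 3277 and 2908, then 7645, 5310 and 2926. The median change of the glucocorticoid list was 0.61 in the knockout, where 2 members, Mt1 and Mt2, rose, and the difference passed for 14 of its 25 members. Serpinb1a was already 152, 179 and 176 in the knockout at 3 months and was 70.1, 69.8 and 165 at 8 months. Gpr17 had a change of -0.87 in the knockout and -0.98 in wild type, and the difference of 0.15 ± 0.314 did not pass (adjusted p = 0.869).

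The knockout arrays at 8 months stood apart from each other, with mean correlations to their own group of 0.9619 to 0.9696, beside 0.9793 to 0.9811 for the wild-type arrays. Their summed glucocorticoid signal was 50140, 31610 and 27140, and their summed microglia signal 20150, 23530 and 10980. The first of them was high in the former and the third low in the latter. Without the first, 21 of the 28 differences among the wild-type calls passed and 112 in all; without the second, 24 and 114; without the third, 28 and 2115. All 28 kept their sign in each of these fits. The count was 104, 141 and 127 without knockout arrays 1, 2 and 3 at 3 months and 207 without the second at 5 months. It was 188, 48 and 139 without the wild-type arrays at 3 months and 75, 126 and 104 without those at 8 months, and it was 0 when the variance did not depend on signal.

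**Figure D5:**
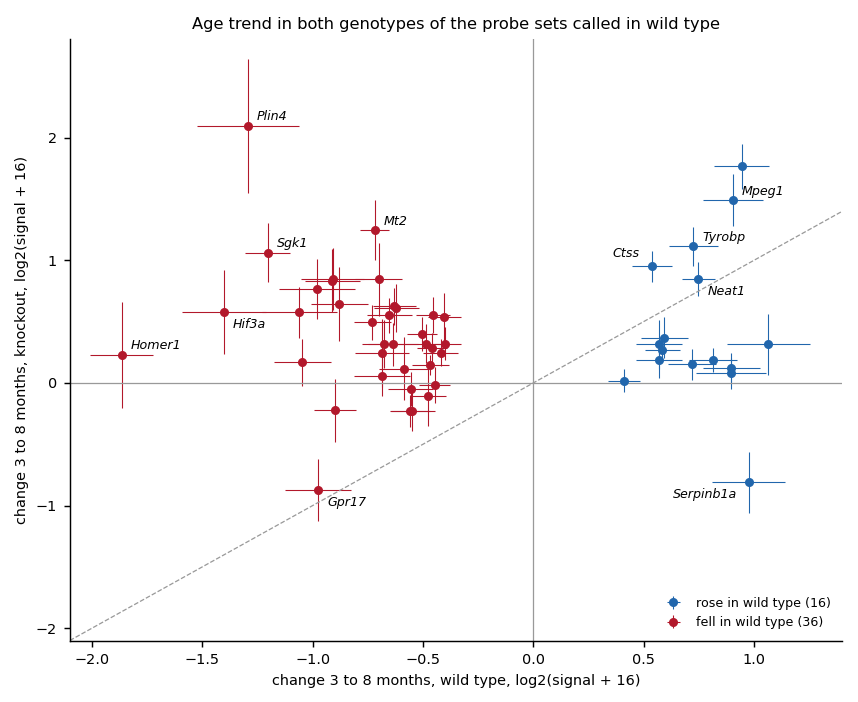
Fitted change from 3 to 8 months on the log2(signal + 16) scale in wild type (x axis) and in Ppt1 knockout (y axis) of the 52 probe sets called in wild type; bars are 1 SE and the dashed line marks equal change. Rising probe sets lie at or above 0 in the knockout except Serpinb1a, and 7 of 36 falling ones lie below 0, Gpr17 lowest.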

How the data were processed

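Each of 18 samples was hybridised to 1 Affymetrix mouse array, and genotype, age and sex were read from the labels. The authors deposited 1 linear intensity per probe set, already scaled, since the mean without the lowest and highest 2% was 150 on every array; the software is not given in the sources used here. They were used as log2(signal + 16), so folds of dim genes are understated. The 64 control probe sets and the dimmest 40% were left out, which left 27022, of which 22964 had 1 symbol in the platform annotation, 565 several and 3493 none; 22901 matched RefSeq by Entrez identifier. limma 3.58.1 in R 4.3.3 (lmFit, eBayes with a variance trend) was fitted to the 9 wild-type arrays with 3 ages and sex, to the 9 knockout arrays, and to all 18 for the difference in trend. Tests were two-sided with Benjamini-Hochberg adjustment over all tested probe sets. Background was the 95th percentile of 27 bacterial control probe sets of an array. Errors are the SD of 3 arrays for signals and the fit's SE for changes. Lists used the brightest probe set of each gene.

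Named genes were up to 15 rising and 15 falling genes with the largest called change and ordered age means, up to 4 each way for each step, up to 5 each way for the genotype difference, and up to 3 per list by p; no sex-chromosome gene was named. Members and lists were chosen with earlier results of these data known. On simulated data of 27022 probe sets with changes of 0.5, 1, 1.5 and 2, the test recovered 24, 68, 94 and 94% of 50 each, with 6 false calls among 146. The number of arrays limits the precision. Alternatives covered normalization, pseudocount, filters, sex term, variance model, array weights, 1 probe set per gene, females alone, a fit on 18 arrays, age as a number and leaving out each array; the glucocorticoid count under these, the step sizes per month and the genotype differences without each 8-month knockout array were added after seeing the data.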

Additional observations from a re-analysis of the deposited data

Results flagged for a closer look

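The difference in age trend between genotypes passed for 311 probe sets, and the following wild-type calls are among those whose trend differed, knockout minus wild type, by the interaction test of limma on 18 arrays with adjusted p below 0.05. Serpinb1a differed by -1.77, since it rose in wild type and not in the knockout. The genes that fell in wild type were chosen by that fall, which is part of the difference. At 3 months their mean signal was already lower in the knockout, as with 232 against 604 for Homer1 and 2040 against 2506 for Mt2. These falling genes all had positive differences. They were Plin4 with 3.51, Sgk1 with 2.36, Homer1 with 2.21, Hif3a with 2.07, Mt2 with 1.99, Gm19439 with 1.87, Zbtb16 with 1.77, Mfsd2a with 1.77, Fkbp5 with 1.63, Nfkbia with 1.62, Tsc22d3 with 1.31, Slc2a1 with 1.28, Cldn11 with 1.20 and Sfpq with 1.00. Without the first knockout array at 8 months, Plin4 differed by 2.67 and Fkbp5 by 1.12, both still passing, while Homer1 (adjusted p = 0.068), Tsc22d3 (0.0506) and Sfpq (0.0714) did not pass. Without the third, Homer1 differed by 1.55 and Plin4 by 4.25.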

How the results depend on the processing

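No paired analysis was possible because sample numbers in the labels run on across groups and none recurs between ages or genotypes. The direction of the 28 genes named for a change (27 of them called) reversed under none of 14 alternatives or 9 left-out wild-type arrays; of 636 values, 467 stayed on their side of the threshold, 167 lost the call and 2 gained it. Quantile normalization, median centring, pseudocounts of 1 and 64 and a robust variance model ended none of the calls of these 28. Leaving out each wild-type array in turn ended no call of Hif3a, Homer1, Mfsd2a, Mt2, Neat1, Sgk1, Slc2a1 and Tsc22d3, whereas the other 19 called genes lost it at least once. A variance that did not depend on signal ended all 27, and the cause was not tested. With age in months as a number, Plin4, Sfpq and Zbtb16 lost the call.

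The count of 52 for the wild-type trend became 29 with no filter on dim probe sets (all 29 among the 52), 0 without a variance trend, 82 with array weights (which include the 52), 11 in females only, with 6 arrays, and 9 with all 18 arrays in the fit; leaving out 1 array gave 16 to 85. The 23 for 8 against 5 months became 10 with no filter, 0 without a variance trend, 1 in females only and 0 in the fit of 18 arrays, and 6 to 43 with 1 array left out. The 0 for 5 against 3 months was 0 to 1 with 1 array left out, the 1 without the first 5-month array. The 311 for the genotype difference became 163 with no filter, 0 without a variance trend (3784 unadjusted), 1210 with array weights, 188 with 1 probe set per gene and 657 in females only, and 48 to 2115 with 1 array left out. The share of 42.3% moving the same way in the knockout ranged from 26.9 to 49.4% with 1 array left out. The 9 glucocorticoid genes that fell became 0 without a variance trend and 1 in the fit of 18 arrays, and 6 to 11 with 1 array left out; the list's median stayed between -0.68 and -0.39 over all alternatives.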

Other observations

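Of 37 heat shock and protein folding genes, 1 passed as lower (Dnajb5), beside 0.177% of all genes, and 27 had a negative change, with a median of -0.10. Among those that did not pass, chaperones of the endoplasmic reticulum had negative values, Manf with -0.37, Herpud1 with -0.37, Hspa5 with -0.27 and Calr with -0.25 (adjusted p of 0.25, 0.17, 0.365 and 0.191 in limma). Of 25 cholesterol biosynthesis genes, 20 had a positive change, with a median of 0.0904; Fdps had 0.30 ± 0.0813, Sqle 0.35 ± 0.101 and Fdft1 0.20 ± 0.0765, and none of the 25 passed, while the list's median in the knockout was -0.35.

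The neutrophil genes S100a8 and S100a9 had the largest positive changes among 9 blood genes, 1.11 and 1.17, but with wide spread. S100a8 had signals of 65.1, 58.3 and 33.1 at 3 months, 77.7, 146 and 27.6 at 5 months and 97.5, 147 and 141 at 8 months, and the adjusted p was 0.298. Marcksl1 (-0.44, adjusted p = 0.0866 in limma) and Sox11 (-0.47, 0.208), genes of immature neurons, had lower means at each older age. They went from 509 ± 84.1 to 366 ± 55.8 and from 267 ± 16.4 to 187 ± 13.4 (SD, n = 3). Dlx1 of the same list had a positive change, 0.56 (0.405). Of the list's 26 measured genes 0 passed, 7 were positive and 19 negative, and the median was -0.0763. Per2, a clock gene, was 203 ± 46.5, 204 ± 29.9 and 127 ± 27.9 at the 3 ages (adjusted p = 0.2), and the median of 23 clock genes was -0.0106.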
